A study of Mus musculus with 12 samples.

Results

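The contractile unit of heart muscle is built from a small set of proteins that are made in large amounts, and 30 of their genes were followed here: the structural genes of the sarcomere and of the Z-disc at its ends. The 30 genes were taken by name from a list drawn up with earlier results of these data known, although no measured value entered the rule, and were grouped by role into the thick filament, the thin filament, titin and the M-band, the Z-disc, the intermediate filament, and the costamere that ties the Z-disc to the cell membrane. Of the 30, 29 had a named probe that stood well above background, among 25321 genes tested in all. Smpx, a small muscle protein placed here in the Z-disc group, had no named probe and was not analysed here.

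Left ventricular RNA of C57/Bl6 mice was measured 21 days after surgery in 4 groups of 3 arrays each: transgenic TAC hearts, transgenic sham hearts, wild-type TAC hearts and wild-type sham hearts. The transgenic mice overexpressed CnAb1, a splice form of the catalytic subunit of the phosphatase calcineurin. TAC, a band around the aortic arch, raises the pressure against which the left ventricle pumps, and the sham operation leaves the band out. Which promoter drives the transgene was not stated in the labels. Since the labels leave unstated whether arrays stand for different animals, p-values here reflect only array-to-array spread, which may be technical.

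In the sarcomere, myosin of the thick filament pulls on actin of the thin filament, under the control of calcium acting on troponin and tropomyosin. Titin spans from the Z-disc to the M-band and keeps the thick filament centred, while the Z-disc anchors the thin filaments through alpha-actinin and a layer of PDZ-LIM and other adaptor proteins. Desmin filaments and the costamere link neighbouring Z-discs to each other and to the membrane, and pressure overload is known to change the level of many of these genes in the ventricle.

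Values are log2 signals scaled to the 75th percentile of each array, so 0 is that percentile and every difference is relative to it. The arrays came from 5 slides, and 60.3% to 78.2% of probes stood well above background on 11 of the 12 arrays. Transgenic sham array 2 stood apart, with 37.2% of probes well above background and a mean net signal of 51.7 on its negative controls, against 1.94 to 9.59 on the others. Several counts and medians below are given with and without it, and values of single genes include it unless stated. The unscaled percentile itself averaged 9.61 in transgenic TAC, 9.50 in transgenic sham, 9.91 in wild-type TAC and 9.14 in wild-type sham hearts. Because of that gap, several directions below depend on the scaling. No array pair held identical values. Tests were limma's moderated tests over all 25321 genes with Benjamini-Hochberg adjustment, and a gene passed at an adjusted p under 0.05; errors on differences are standard errors.

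Muscle genes are classically switched on through a few short promoter sequences, which were searched for here. Windows of 250 bases upstream of the start site were available from RefSeq (GRCm38.p6) for 25 of the 30 genes. A CArG box, the site of serum response factor, lay in the windows of 6 of the 25 genes (24.0%), against 1.62% of 27025 genes with a window. A MEF2 site lay in 5 (20.0%), against 3.42% of all genes, and the M-CAT core CATTCC, the site of TEAD factors, lay in 10 (40.0%), against 14.4%. The TATA box TATAAA was found in 3 (12%), against 14.3%, and the E-box CANNTG in 20 (80.0%), against 69.3%. Both strands were searched, and in Dmd the TATA box overlapped a MEF2 site. These are matches of letters in a short window and were not tested as sites. A set of 5 windows is shown, 3 from genes that fell in wild-type TAC hearts (Myl3, Tnnt2 and Ldb3) and 2 from genes that did not pass (Myom1 and Vcl), to set the same boxes side by side; capitals mark CArG boxes and M-CAT cores.
Myl3, chr9:110763428-110763677, plus strand: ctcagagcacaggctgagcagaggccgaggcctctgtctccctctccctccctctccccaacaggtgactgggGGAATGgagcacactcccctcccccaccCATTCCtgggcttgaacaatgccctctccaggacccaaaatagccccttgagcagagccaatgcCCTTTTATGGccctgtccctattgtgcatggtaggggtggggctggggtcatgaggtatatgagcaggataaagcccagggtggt
Tnnt2, chr1:135836084-135836333, plus strand: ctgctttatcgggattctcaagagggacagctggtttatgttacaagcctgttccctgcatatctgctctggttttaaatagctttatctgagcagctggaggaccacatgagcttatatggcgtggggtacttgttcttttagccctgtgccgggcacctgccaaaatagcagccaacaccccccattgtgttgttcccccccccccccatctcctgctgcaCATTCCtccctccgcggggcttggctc
Ldb3, chr14:34588682-34588931, minus strand: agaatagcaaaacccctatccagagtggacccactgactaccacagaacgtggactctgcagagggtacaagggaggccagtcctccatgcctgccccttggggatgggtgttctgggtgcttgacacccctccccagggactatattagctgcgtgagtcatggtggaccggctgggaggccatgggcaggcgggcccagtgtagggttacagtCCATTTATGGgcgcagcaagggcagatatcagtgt
Myom1, chr17:71019307-71019556, plus strand: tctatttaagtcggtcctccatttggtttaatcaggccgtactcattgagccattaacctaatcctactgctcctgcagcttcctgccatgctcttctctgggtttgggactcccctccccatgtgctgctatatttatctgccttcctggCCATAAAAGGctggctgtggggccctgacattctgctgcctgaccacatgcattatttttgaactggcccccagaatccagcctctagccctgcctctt
Vcl, chr14:20929148-20929397, plus strand: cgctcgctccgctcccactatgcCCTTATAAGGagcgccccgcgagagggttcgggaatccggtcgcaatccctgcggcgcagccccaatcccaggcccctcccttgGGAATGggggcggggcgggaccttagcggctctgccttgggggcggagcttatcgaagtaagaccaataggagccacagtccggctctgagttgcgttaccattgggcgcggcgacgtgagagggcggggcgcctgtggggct
The CArG box of Myl3 (CCTTTTATGG) ran from -85 to -76 relative to the start site, that of Ldb3 (CCATTTATGG) from -35 to -26, that of Myom1 (CCATAAAAGG) from -99 to -90 and that of Vcl (CCTTATAAGG) from -227 to -218. Dmd (CCTATTATGG) and Nebl (CCTAAATTGG) held the other two. The Tnnt2 window shown had no CArG box and an M-CAT core from -27 to -22, and the other Tnnt2 window had neither. Genes with and without a CArG box were found both among the members that fell and among those that did not pass.

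The first comparison asked what pressure overload did to these genes in wild-type hearts. Relative to the 75th percentile, 9 of the 29 members fell (Mylk3, Myl3, Cmya5, Tcap, Tnnt2, Tpm1, Myl2, Ldb3 and Cryab), 3 rose (Pdlim3, Synm and Des) and 17 did not pass. Over all genes tested, 21.2% passed in this comparison, 12.5% lower and 8.7% higher, so the members' share in either direction was 12 of 29. Their median difference was -0.07, against -0.13 over all genes. The arrays of the groups did not overlap for 13 members lower and 6 higher in TAC, where 29.4% and 17.5% of all genes did so (46.9% in either direction). Without scaling between arrays, 5 of the 9 falling members turned to small positive differences. No member was then called lower and 18 were called higher, where 11678 of 25321 genes passed in either direction. The members' median was then 0.70 and that of all genes 0.64. The 9 genes were thus lower relative to most other genes on the same arrays, and their own unscaled signal differed by -0.21 to 0.28. Scaled on the members' own median, the 9 passed as lower again and Synm as higher, where 4046 of all genes passed in either direction. With slide as a fixed block, 1 of the 12 calls was kept (Mylk3) and all 12 kept their sign, and the adjusted p-values given below come from the fit without that block. In bulk tissue, fewer heart muscle cells and less of an RNA per cell cannot be told apart.

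**Figure D1:**
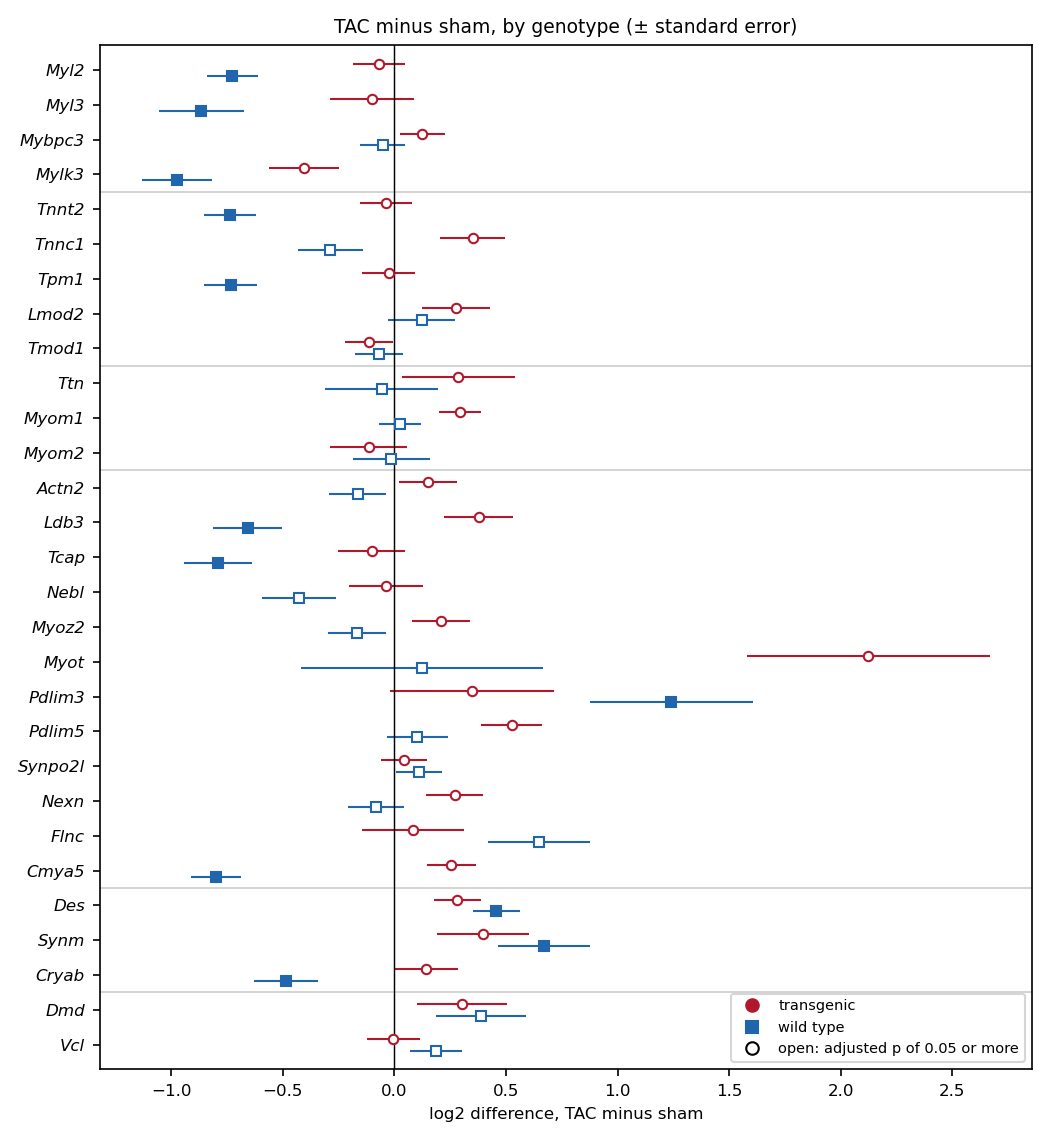
Log2 difference of TAC minus sham for each of the 29 measured members, in transgenic (circles) and wild-type (squares) hearts, with standard errors, on the 75th percentile scale; filled symbols passed at an adjusted p under 0.05, and lines divide the role groups. The filled squares to the left are the 9 members lower in wild-type TAC hearts (5 of these turn positive without scaling between arrays), those to the right are Pdlim3, Des and Synm, and no circle is filled.

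In the transgenic hearts 0 of the 29 members passed for TAC against sham by limma, and 0 of 25321 genes (0%) did; 1575 genes had an unadjusted p under 0.05. The members' median difference was 0.15, against -0.01 over all genes. It was 0.086 without transgenic sham array 2, 0.26 without scaling between arrays and -0.12 when scaled on the members' own median. For 8 members (Tnnc1, Lmod2, Myom1, Ldb3, Myot, Pdlim5, Nexn and Des) every transgenic TAC array lay above every transgenic sham array, which held for 4.53% of all genes, and for 0 members in the other direction, against 3.93% (8.47% in either direction). Without transgenic sham array 2 the count was 9 of 29, against 7.08% of all genes. The difference between the genotypes in their response, transgenic minus wild type, passed for 5 members, each with a positive sign: Cmya5, Ldb3, Tpm1, Tnnt2 and Myl2. Over all genes 7.08% passed, 4.18% with a positive and 2.9% with a negative sign, and the members' median was 0.35, against 0.10. These comparisons share the sham arrays of each genotype. With 1 array left out the count of 5 ranged from 1 to 6; it was 1 without transgenic sham array 2, transgenic TAC array 1 or 3, wild-type sham array 1 or 3, or wild-type TAC array 1 or 3, and 2 without wild-type sham array 2 or wild-type TAC array 2. Under quantile normalization it was 0, with a median of 0.03, and with slide as a block it was also 0. Without scaling the median turned to -0.31, with 22 of 29 members below 0 (all genes -0.56). None of the 5 calls was kept, and 2 other members, Des and Flnc, passed with a negative sign, where 4043 of 25321 genes passed.

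The thick filament group held 4 genes, of which 3 fell after TAC in wild-type hearts. Myl2, the regulatory light chain of ventricular myosin, gave 8.44, 8.18 and 8.49 in transgenic TAC, 8.55, 8.30 and 8.48 in transgenic sham, 8.28, 8.09 and 8.18 in wild-type TAC, and 8.91, 8.93 and 8.90 in wild-type sham hearts. The wild-type sham arrays were the 3 highest of the 12 and lay close together. Myl2 fell by 0.73 ± 0.12 in wild-type TAC hearts (adjusted p = 0.0035), to 60.4% of the scaled wild-type sham signal. Before scaling, Myl2 averaged 18.09 in wild-type TAC and 18.05 in wild-type sham hearts. In transgenic hearts its difference was -0.07 ± 0.12 (adjusted p = 0.903), and the responses differed by 0.66 ± 0.16 (adjusted p = 0.0443). Transgenic sham hearts had 72.2% of the wild-type sham signal, a difference of -0.47 ± 0.12 that did not pass (adjusted p = 0.0851).

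Myl3, the essential light chain that wraps the lever arm of the same myosin, gave 8.96, 8.64 and 9.06 in transgenic TAC, 9.04, 8.92 and 9.01 in transgenic sham, 8.70, 7.98 and 8.56 in wild-type TAC, and 9.26, 9.42 and 9.15 in wild-type sham hearts. Wild-type TAC array 2 was the lowest of the 12, and wild-type TAC arrays lay below all wild-type sham arrays. The fall was 0.87 ± 0.19 (adjusted p = 0.0117), against a difference of -0.10 ± 0.19 in transgenic hearts, and the difference between these responses, 0.77 ± 0.27, did not pass (adjusted p = 0.111). Mylk3, the kinase that phosphorylates the regulatory light chain in heart muscle, had the largest fall among the members. Its values were 1.92, 1.61 and 1.66 in transgenic TAC, 2.31, 2.29 and 1.80 in transgenic sham, 1.71, 1.46 and 1.69 in wild-type TAC, and 2.54, 2.68 and 2.57 in wild-type sham hearts. Wild-type TAC hearts kept 50.9% of the sham signal (a fall by 0.98 ± 0.16, adjusted p = 0.00356), and transgenic TAC hearts 75.6% of theirs, which did not pass (-0.40 ± 0.16, adjusted p = 0.797). Mybpc3, cardiac myosin-binding protein C, gave 8.01, 7.85 and 8.05 in transgenic TAC, 7.91, 7.78 and 7.84 in transgenic sham, 8.14, 8.01 and 8.20 in wild-type TAC, and 8.12, 8.16 and 8.23 in wild-type sham hearts. Its TAC arrays overlapped the sham arrays in both genotypes, and the wild-type difference was -0.05 (95% interval -0.28 to 0.17, adjusted p = 0.768).

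Of the 5 thin filament genes, 2 fell in wild-type TAC hearts. Tnnt2 encodes the troponin subunit that holds the complex on tropomyosin. Its signal was 8.27, 8.05 and 8.32 in transgenic TAC, 8.39, 8.18 and 8.19 in transgenic sham, 8.14, 7.94 and 8.08 in wild-type TAC, and 8.68, 8.87 and 8.81 in wild-type sham hearts. As for Myl2, the wild-type sham arrays lay above the other 9. It fell by 0.74 ± 0.12 in wild-type TAC hearts (adjusted p = 0.0034), differed by -0.04 ± 0.12 in transgenic hearts, and the responses differed by 0.70 ± 0.17 (adjusted p = 0.0374). Tpm1, alpha-tropomyosin, gave 8.68, 8.35 and 8.60 in transgenic TAC, 8.68, 8.50 and 8.52 in transgenic sham, 8.38, 8.21 and 8.28 in wild-type TAC, and 8.89, 9.06 and 9.12 in wild-type sham hearts on its brightest probe. Its fall in wild-type TAC hearts was 0.73 ± 0.12 (adjusted p = 0.00369), and the responses differed by 0.71 ± 0.17 (adjusted p = 0.0381); other probes of Tpm1 went the other way, as described below.

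Tnnc1, the calcium-binding troponin subunit, did not pass in any comparison, although its groups separated in several. It gave 6.65, 6.57 and 6.85 in transgenic TAC, 6.44, 6.16 and 6.42 in transgenic sham, 6.74, 6.69 and 6.28 in wild-type TAC, and 6.84, 6.81 and 6.92 in wild-type sham hearts. Transgenic TAC arrays lay above transgenic sham arrays, and wild-type TAC arrays lay below wild-type sham arrays. The differences were 0.35 ± 0.15 and -0.29 ± 0.15, and the difference between them was 0.64 ± 0.21 (adjusted p = 0.0888). Lmod2, a leiomodin that helps actin filaments lengthen at their pointed ends, gave 1.70, 1.96 and 1.70 in transgenic TAC, 1.65, 1.56 and 1.32 in transgenic sham, 2.17, 2.45 and 2.08 in wild-type TAC, and 2.28, 2.14 and 1.91 in wild-type sham hearts. All transgenic arrays but transgenic TAC array 2 lay below the lowest wild-type array; the genotype difference was -0.60 ± 0.15 after sham (adjusted p = 0.0893) and -0.44 ± 0.15 after TAC (adjusted p = 0.122). Tmod1, tropomodulin, caps those ends. Its 12 values lay between 2.38 and 2.76, and its 4 differences between groups were -0.12 to 0.01.

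The titin and M-band group had no call in any comparison. Ttn, the giant elastic protein that spans from Z-disc to M-band, ranged from 5.62 to 6.32 in transgenic TAC, 5.27 to 6.23 in transgenic sham, 5.79 to 6.15 in wild-type TAC and 5.92 to 6.24 in wild-type sham hearts. The groups overlapped throughout, and the wild-type difference for TAC had a 95% interval of -0.62 to 0.51. Myom1, myomesin, which cross-links thick filaments in the M-band, gave 5.45, 5.43 and 5.31 in transgenic TAC, 5.02, 5.11 and 5.18 in transgenic sham, 5.36, 5.32 and 5.35 in wild-type TAC, and 5.39, 5.22 and 5.35 in wild-type sham hearts. Transgenic sham arrays were the 3 lowest, and TAC against sham in transgenic hearts differed by 0.29 ± 0.09 (adjusted p = 0.797), against 0.02 ± 0.09 in wild-type hearts. Myom2, its relative, ranged from 7.18 to 7.99 over the 12 arrays, with groups that overlapped in each of the 4 comparisons.

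At the Z-disc, 12 of 13 genes were measured, and in wild-type hearts 3 fell, 1 rose and 8 did not pass. Cmya5, the large muscle protein myospryn, gave 5.11, 4.76 and 4.88 in transgenic TAC, 4.77, 4.66 and 4.56 in transgenic sham, 4.47, 4.48 and 4.52 in wild-type TAC, and 5.29, 5.28 and 5.30 in wild-type sham hearts. The wild-type sham arrays lay close together at the top and the wild-type TAC arrays at the bottom, and every transgenic array lay between these sets. Cmya5 fell by 0.80 ± 0.11 in wild-type TAC hearts (adjusted p = 0.00212) and stood at 0.26 ± 0.11 for TAC in transgenic hearts (adjusted p = 0.797). The responses differed by 1.06 ± 0.16, the largest difference among the members that passed (adjusted p = 0.014). Transgenic sham hearts were also lower than wild-type sham hearts, by 0.63 ± 0.11 (adjusted p = 0.0302), and after TAC the transgenic hearts stood 0.43 ± 0.11 above wild type (adjusted p = 0.0613).

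Ldb3, a PDZ-LIM protein that binds alpha-actinin and is also called cypher or ZASP, followed a like order on its brightest probe. It gave 4.58, 4.34 and 4.51 in transgenic TAC, 4.12, 3.96 and 4.22 in transgenic sham, 4.31, 4.34 and 3.96 in wild-type TAC, and 4.92, 4.61 and 5.06 in wild-type sham hearts. Wild-type sham arrays were the 3 highest and transgenic sham arrays lay low, with wild-type TAC array 3 among them. The fall in wild-type TAC hearts was 0.66 ± 0.15 (adjusted p = 0.0153), the transgenic difference for TAC was 0.38 ± 0.15 (adjusted p = 0.797), and the responses differed by 1.03 ± 0.22 (adjusted p = 0.0278). Transgenic sham hearts were lower than wild-type sham hearts by 0.76 ± 0.15 (adjusted p = 0.0464). On the other probe of Ldb3, described below, the sham arrays of the genotypes overlapped and TAC arrays lay above sham arrays in both genotypes.

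Tcap, telethonin, which caps the end of titin in the Z-disc, gave 7.94, 7.99 and 8.32 in transgenic TAC, 8.45, 7.99 and 8.11 in transgenic sham, 8.15, 7.93 and 7.91 in wild-type TAC, and 8.73, 8.79 and 8.85 in wild-type sham hearts. The wild-type sham arrays lay above all others. It fell by 0.79 ± 0.15 in wild-type TAC hearts (adjusted p = 0.00672), against -0.10 ± 0.15 in transgenic hearts; the responses differed by 0.69 ± 0.21, which did not pass (adjusted p = 0.0801). Pdlim3, a second PDZ-LIM protein that binds alpha-actinin, was the Z-disc gene that rose. Its values were 0.40, 1.14 and 1.31 in transgenic TAC, 0.51, 0.76 and 0.55 in transgenic sham, 1.55, 0.94 and 2.35 in wild-type TAC, and 0.70, 0.54 and -0.12 in wild-type sham hearts. The wild-type TAC arrays were spread over more than 1 log2 unit, and the lowest of them lay above the highest wild-type sham array. Pdlim3 rose by 1.24 ± 0.37 in wild-type TAC hearts (adjusted p = 0.038), and the transgenic difference was 0.35 ± 0.37 (adjusted p = 0.859). Without wild-type TAC array 3 the rise was 0.87 (adjusted p = 0.129), and within the slide that held both wild-type groups it was 0.33.

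Myot, myotilin, which bundles actin at the Z-disc, had the widest spread. It gave 3.23, 3.51 and 3.91 in transgenic TAC, 1.72, 0.92 and 1.63 in transgenic sham, 3.16, 3.38 and 0.96 in wild-type TAC, and 2.52, 2.18 and 2.43 in wild-type sham hearts. Wild-type TAC array 3 lay more than 2 log2 units below its group, and all transgenic TAC arrays lay above all transgenic sham arrays. The transgenic difference for TAC was 2.12 ± 0.54 (95% interval 0.91 to 3.34), whose adjusted p was 0.797 among 25321 genes, and the responses differed by 2.00 ± 0.77 (adjusted p = 0.14). Without wild-type TAC array 3 the wild-type difference was 0.89 instead of 0.12, and the responses differed by 1.23 ± 0.37 (adjusted p = 0.112). Pdlim5, another alpha-actinin binding PDZ-LIM protein, gave 5.52, 5.74 and 5.85 in transgenic TAC, 5.07, 5.11 and 5.35 in transgenic sham, 5.61, 5.81 and 5.43 in wild-type TAC, and 5.50, 5.59 and 5.45 in wild-type sham hearts. The transgenic sham arrays were the 3 lowest; TAC differed from sham by 0.53 ± 0.14 in transgenic hearts (adjusted p = 0.797) and by 0.10 ± 0.14 in wild-type hearts.

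Flnc, filamin C, which cross-links actin beside the Z-disc, gave 4.20, 4.41 and 4.58 in transgenic TAC, 3.83, 4.23 and 4.88 in transgenic sham, 4.89, 4.88 and 4.77 in wild-type TAC, and 4.23, 4.30 and 4.07 in wild-type sham hearts. Wild-type TAC arrays lay above wild-type sham arrays by 0.65 ± 0.23, which did not pass over all arrays (adjusted p = 0.0712). It did pass in a fit of the wild-type groups alone (adjusted p = 0.0139), without transgenic sham array 3 (adjusted p = 0.0127), which spread its group most, or without transgenic sham array 1 (adjusted p = 0.0303). Nebl, nebulette, an actin-binding relative of nebulin in heart, gave -3.54, -3.77 and -3.64 in transgenic TAC, -3.41, -3.93 and -3.50 in transgenic sham, -3.68, -4.04 and -3.60 in wild-type TAC, and -3.24, -3.36 and -3.45 in wild-type sham hearts, and was well above background on 11 arrays, not on transgenic sham array 2. Its wild-type difference was -0.43 ± 0.17 (adjusted p = 0.0987). Actn2, alpha-actinin itself, ranged from 6.17 to 6.56 over all arrays, with a wild-type difference of -0.16 ± 0.13. Myoz2, calsarcin 1, which binds calcineurin at the Z-disc, ranged from 6.32 to 6.77; its differences for TAC were 0.21 ± 0.13 in transgenic and -0.17 ± 0.13 in wild-type hearts, and neither passed. Synpo2l, an actin-associated Z-disc protein, ranged from 1.97 to 2.49 and Nexn, the actin-binding protein nexilin, from 4.69 to 5.41. Nexn was lower on every transgenic sham array than on every wild-type sham array (-0.43 ± 0.13, adjusted p = 0.129).

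In the intermediate filament group, 2 genes rose and 1 fell in wild-type TAC hearts. Des, desmin, the main intermediate filament of muscle, gave 4.73, 4.91 and 4.83 in transgenic TAC, 4.39, 4.54 and 4.69 in transgenic sham, 5.22, 5.35 and 5.27 in wild-type TAC, and 4.84, 4.82 and 4.80 in wild-type sham hearts. The wild-type TAC arrays were the 3 highest, and the transgenic sham arrays the 3 lowest. Des rose by 0.46 ± 0.10 in wild-type TAC hearts (adjusted p = 0.014) and differed by 0.28 ± 0.10 for TAC in transgenic hearts (adjusted p = 0.797), with no overlap of arrays in either genotype. After TAC it was lower in transgenic than in wild-type hearts by 0.46 ± 0.10 (adjusted p = 0.0443), the only member to pass in that comparison. The responses of the genotypes differed by -0.17 (95% interval -0.50 to 0.16).

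Synm, synemin, which joins desmin filaments to the costamere, gave -1.04, -0.94 and -1.37 in transgenic TAC, -1.10, -1.92 and -1.53 in transgenic sham, -0.83, -0.73 and -0.51 in wild-type TAC, and -1.53, -1.27 and -1.29 in wild-type sham hearts, and was well above background on all arrays but transgenic sham array 2. It rose by 0.67 ± 0.21 in wild-type TAC hearts (adjusted p = 0.0446) and differed by 0.40 ± 0.21 in transgenic hearts (adjusted p = 0.804). Cryab, the small heat shock protein alpha-B-crystallin, which keeps desmin from aggregating, gave 7.93, 7.76 and 8.09 in transgenic TAC, 7.77, 7.61 and 7.97 in transgenic sham, 8.01, 8.07 and 7.69 in wild-type TAC, and 8.33, 8.40 and 8.50 in wild-type sham hearts. The wild-type sham arrays were the 3 highest. It fell by 0.49 ± 0.14 in wild-type TAC hearts (adjusted p = 0.0381), a direction that turned under quantile normalization (0.10) and without scaling (0.28). The transgenic difference was 0.14 ± 0.14.

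Neither costamere gene passed in any comparison. Dmd, dystrophin, which links actin to the membrane complex, gave 0.20, -0.04 and 0.02 in transgenic TAC, -0.43, -0.51 and 0.22 in transgenic sham, 0.18, 0.05 and 0.46 in wild-type TAC, and -0.04, -0.35 and -0.09 in wild-type sham hearts. Wild-type TAC arrays lay above wild-type sham arrays (0.39 ± 0.20, adjusted p = 0.212). Vcl, vinculin, which links actin to integrins, gave 1.38, 1.59 and 1.39 in transgenic TAC, 1.49, 1.59 and 1.30 in transgenic sham, 1.41, 1.52 and 1.64 in wild-type TAC, and 1.40, 1.24 and 1.37 in wild-type sham hearts. The wild-type difference was 0.19 ± 0.12 (adjusted p = 0.314) and the transgenic one -0.00 ± 0.12.

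**Figure D2:**
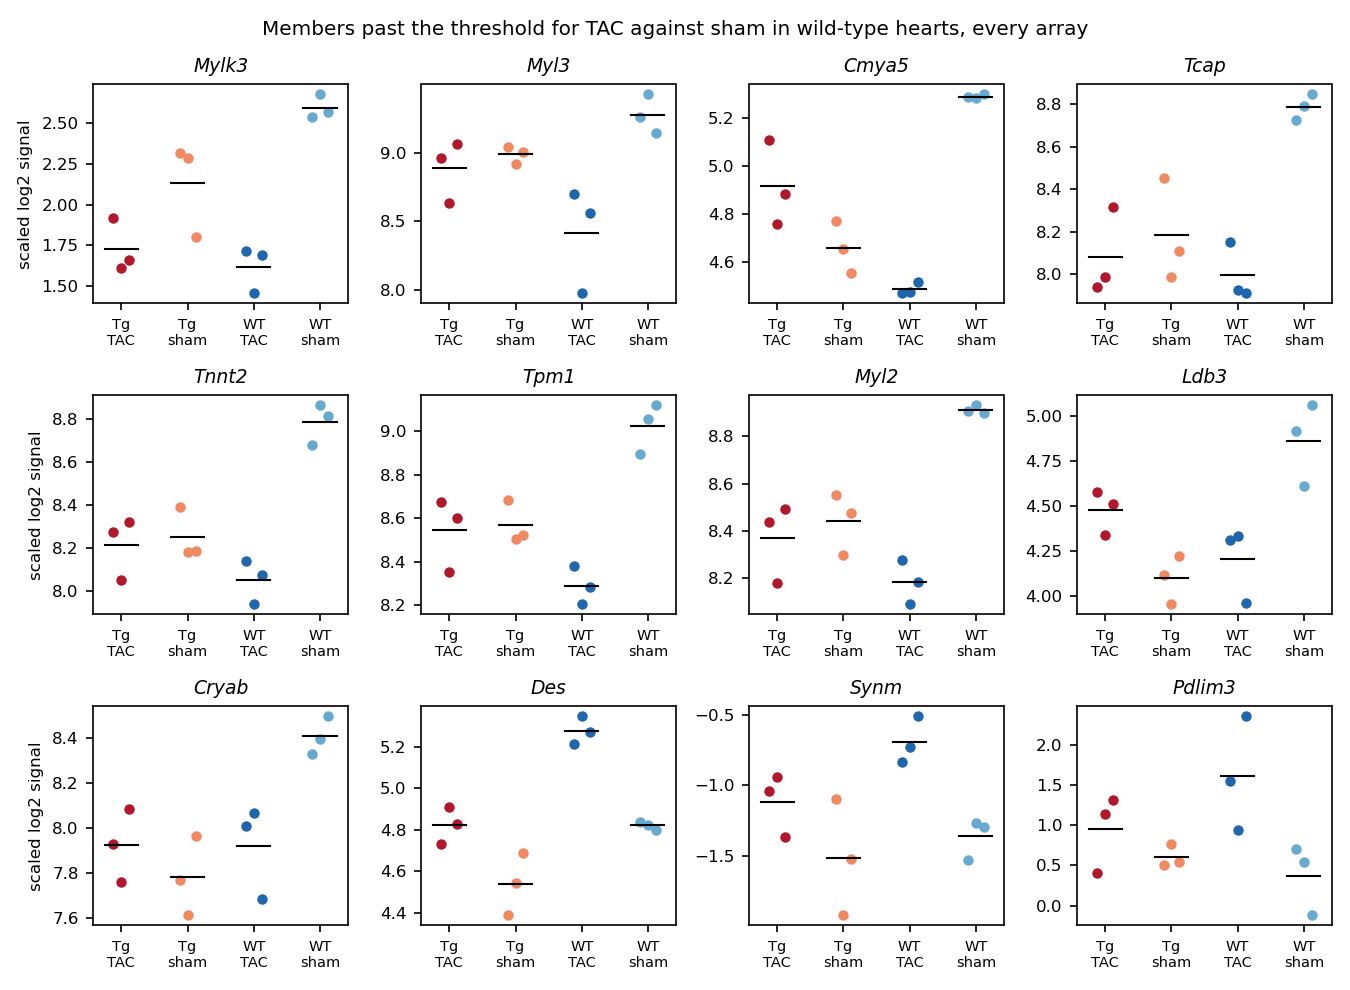
Scaled log2 signal (relative to the 75th percentile of the array) of the 12 members called in wild-type TAC hearts, on every array; each point is 1 array, bars are means of 3, and each panel has its own axis. In the first 9 panels the wild-type sham arrays lie above the wild-type TAC arrays, as they do not for all 9 without scaling; in the last 3 they lie below.

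The genotypes were next compared within each kind of surgery. In sham hearts 2 of 29 members passed, Cmya5 and Ldb3 (on its brightest probe), both lower in transgenic hearts. Over all genes 1.44% passed and 0.663% were lower. The members' median difference was -0.33, against -0.05 over all genes. For 18 members every transgenic sham array lay below every wild-type sham array, and for 0 members above; over all genes 14.2% lay below in this way and 8.09% above, 22.3% together. Without transgenic sham array 2 the 18 became 20 of 29, against 17.4% of all genes, and the 2 calls were lost, with Cmya5 at -0.62 and Ldb3 at -0.69. The count was also 0 without transgenic sham array 3, transgenic TAC array 3, any of the wild-type sham arrays or wild-type TAC array 1, and 1 without transgenic TAC array 1 or 2 or wild-type TAC array 2. By role, all 4 thick filament genes and 4 of 5 thin filament genes were among the 18, with 7 of 12 Z-disc genes, 2 of 3 of the intermediate filament group, 1 of 3 of titin and the M-band, and 0 of 2 at the costamere. The median difference was -0.39 for the thick filament, -0.52 for the thin filament, -0.30 for the Z-disc and 0.02 for the costamere. Without scaling the median of the members was 0.03, and that of all genes 0.31. In the same comparison all 9 cardiomyocyte markers were below 0 (median -0.42, 8 of them without overlap of arrays), and the 11 fibroblast markers had a median of 0.60, 6 of them higher without overlap; their part in the members' difference was not tested.

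After TAC, 1 of 29 members passed between the genotypes (Des, lower in transgenic hearts), where 4% of all genes passed and 1.86% were lower. The members' median was 0.05, as was that of all genes. It turned to -0.24 without scaling, with 26 of 29 members below 0 (all genes -0.25), and to -0.089 under quantile normalization. Here the cardiomyocyte markers had a median of 0.30 and the fibroblast markers one of -0.94. Arrays did not overlap for 2 members higher in transgenic hearts (Ldb3 and Cmya5), where 19.4% of all genes did so. They did not overlap for 5 members lower (Des, Lmod2, Synpo2l, Flnc and Synm), where the share of all genes was 13.7% (33% in either direction). The Des call was lost when any 1 of 10 arrays was left out, that is all but transgenic sham arrays 1 and 3.

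**Figure D3:**
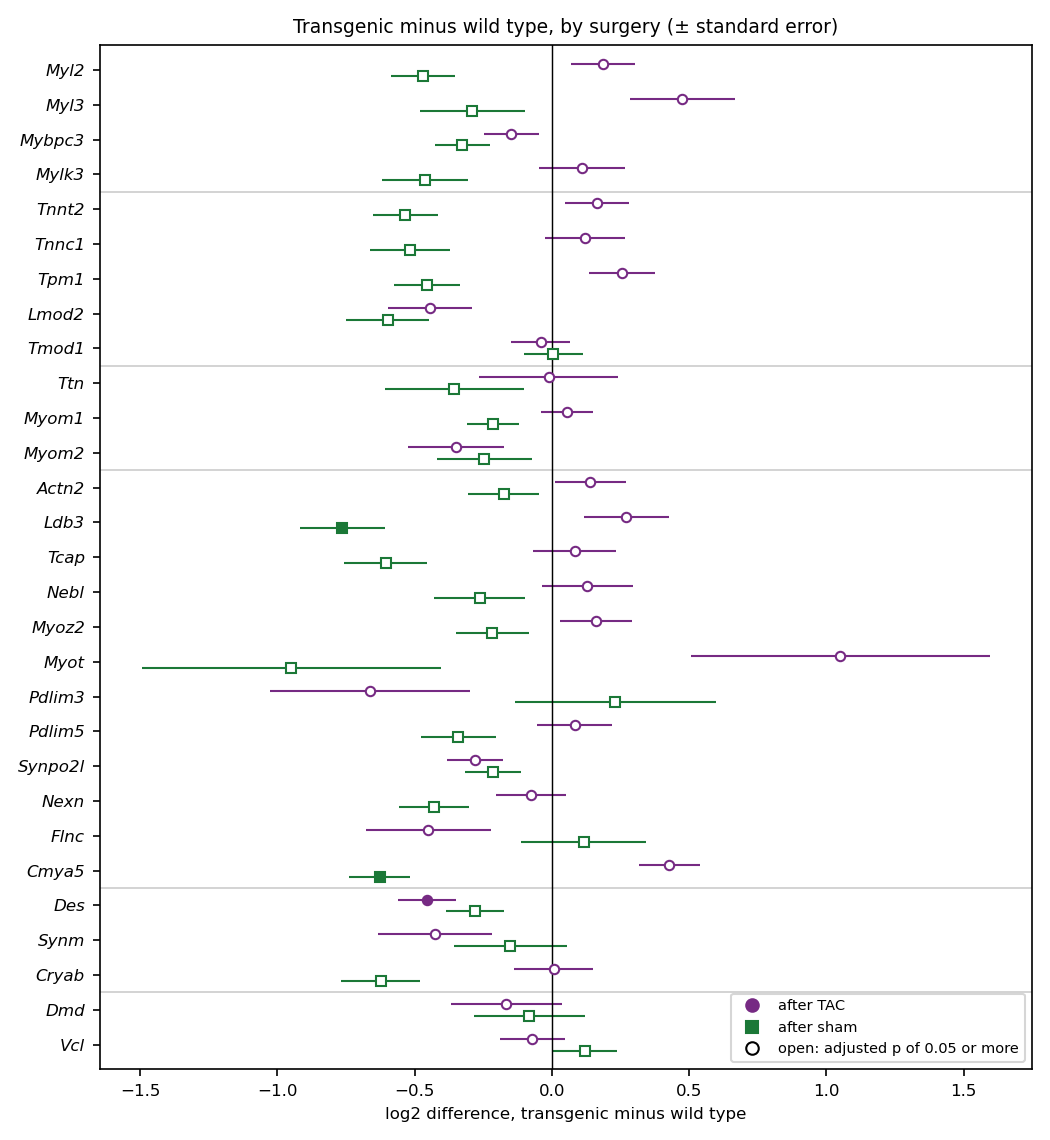
Log2 difference of transgenic minus wild-type hearts for each of the 29 measured members, after TAC (circles) and after sham (squares), with standard errors, on the 75th percentile scale; filled symbols passed at an adjusted p under 0.05. Most squares lie left of 0, with Ldb3 and Cmya5 filled, and the circles lie around 0, with Des filled; without scaling between arrays the squares centre on 0.03.

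Over the 12 arrays the level of the members as a set differed by group. The median of the 29 scaled values averaged -0.16 ± 0.04 in transgenic TAC, -0.34 ± 0.07 in transgenic sham, -0.14 ± 0.11 in wild-type TAC and 0.00 ± 0.02 in wild-type sham hearts (SD, n = 3 each), after each gene was set to 0 at its mean in wild-type sham hearts. The transgenic sham arrays were the lowest group on this measure.

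For 10 members more than 1 probe was measured, so these probes could be set against each other within each array; in several, such as Cmya5 and Vcl, all probes carried the same transcript name. The question whether probes of a gene responded alike was asked with limma's diffSplice over 4172 genes, a test chosen after these values had been seen. In wild-type TAC against sham 2 of the 10 members passed, Tpm1 and Ldb3, where 2.78% of all genes did. The 2 probes of Ldb3 parted: the probe for NM_001039076 fell by 0.66 as given above, and the probe for NM_011918 rose by 0.35 ± 0.09 (adjusted p = 0.0261). The second probe gave 4.15, 4.28 and 4.28 in transgenic TAC, 3.87, 4.02 and 3.82 in transgenic sham, 4.35, 4.34 and 4.36 in wild-type TAC, and 4.03, 4.03 and 3.93 in wild-type sham hearts. On each array the first minus the second was 0.42, 0.06 and 0.23 in transgenic TAC, 0.24, -0.07 and 0.40 in transgenic sham, -0.03, -0.01 and -0.39 in wild-type TAC, and 0.89, 0.58 and 1.13 in wild-type sham hearts. The 3 wild-type sham arrays were the highest and the 3 wild-type TAC arrays included the lowest. On the second probe alone the sham arrays of the 2 genotypes overlapped, and TAC arrays lay above sham arrays in both genotypes. The probes differed in response with an adjusted p of 0.00187 in wild-type hearts and 0.0506 for the difference between genotypes. Ldb3 is known to be spliced into long and short forms in heart, and where on these forms each probe lies was not analysed here.

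Tpm1 had 5 probes. Both probes for NM_001164248, which gave the brightest signal, fell in wild-type TAC hearts, by 0.73 and 0.68. The probes for NM_001164255, NM_001164249 and NM_001164251 differed by 0.24 ± 0.09, 0.67 ± 0.23 and 0.32 ± 0.23 in the same comparison, and none of these passed alone. The probe for NM_001164249 gave -0.88, -0.39 and -0.65 in transgenic TAC, -0.36, -0.17 and -0.96 in transgenic sham, -0.07, -0.04 and 0.40 in wild-type TAC, and -0.72, -0.31 and -0.69 in wild-type sham hearts. Its wild-type TAC values were the 3 highest of the 12 arrays. As a set the 5 probes responded unequally in wild-type hearts (adjusted p = 0.000123), between genotypes after TAC (adjusted p = 0.0489) and in the difference between responses (adjusted p = 0.0236). Over all genes the shares were 0.527% and 0.599% in these last comparisons, and 0.288% between genotypes after sham, where 0 of the 10 members passed, as in transgenic TAC against sham (0%). Averaged over its 5 probes, Tpm1 gave a difference between responses of -0.05, in place of 0.71. Tpm1 and other tropomyosin genes are alike in sequence and RNA of one can bind probes of another, so the dim probes are uncertain. Before scaling, the brightest probe averaged 18.20 in wild-type TAC and 18.17 in wild-type sham hearts. It stood above the probe for NM_001164249 by group means of 8.19 to 9.60. Whether probes so unlike in brightness respond alike to the same change in RNA was not tested.

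Pdlim5 had 2 probes for NM_019809, which differed by 0.10 ± 0.14 and 0.15 ± 0.13 for TAC in wild-type hearts. A probe for NM_001190852 rose by 1.13 ± 0.34 (adjusted p = 0.0427), with values of -1.91, -1.34 and -1.17 in transgenic TAC, -1.70, -1.25 and -0.88 in transgenic sham, -0.91, -1.27 and 0.03 in wild-type TAC, and -1.83, -1.64 and -2.06 in wild-type sham hearts. The probes as a set did not pass (adjusted p = 0.126 in wild-type hearts, 0.0987 for the difference between responses). Wild-type TAC array 3 was the highest of the 12 on that probe.

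**Figure D4:**
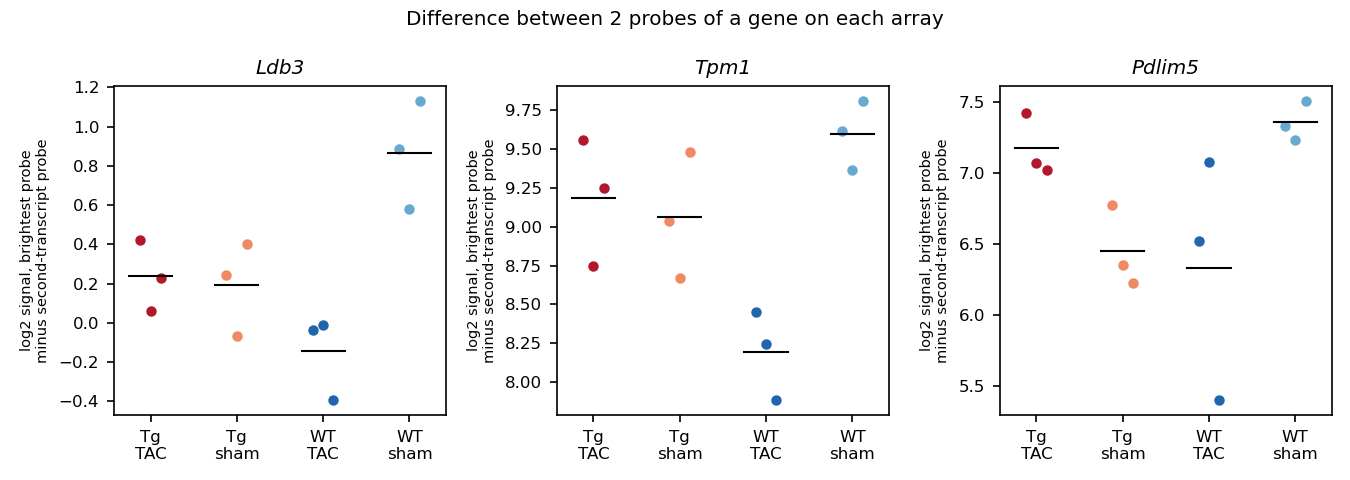
Log2 signal of the brightest probe minus that of a probe for another transcript of the same gene on each array, for Ldb3, Tpm1 (NM_001164249) and Pdlim5 (NM_001190852); each point is 1 array and bars are means of 3. A fall of the difference shows unequal change of the 2 signals. A value subtracted from the whole array cancels in it, while a response that varies with brightness would not, and that was not tested. For Ldb3 and Tpm1 the wild-type TAC arrays lie below the wild-type sham arrays.

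The scaling set the sign of several results, so every member was followed through it. Under quantile normalization 6 members rose in wild-type TAC hearts and 2 fell, where 4200 of 25321 genes passed in either direction. The members' median was 0.23, against -0.05 over all genes. The 9 members that fell on the 75th percentile scale had differences from -0.86 (Mylk3) to 0.10 (Cryab) there. The members added by it were Mybpc3 (0.56 ± 0.09, adjusted p = 0.00446), Pdlim5 (0.38 ± 0.11, adjusted p = 0.0402) and Flnc (0.88 ± 0.18, adjusted p = 0.0127). The differences of Pdlim3, Synm and Des were above 0 with the 75th percentile, median, quantile, members' median and normexp settings and without scaling.

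**Figure D5:**
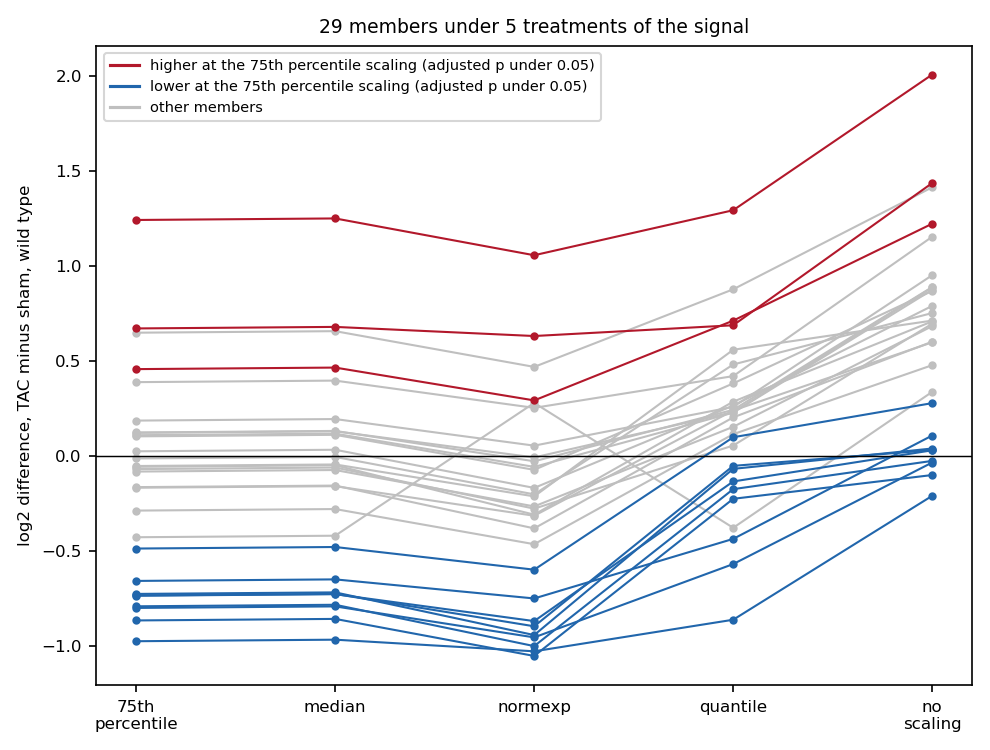
Log2 difference of wild-type TAC minus sham hearts for the 29 members under 5 treatments of the signal; each line is 1 member, blue for the 9 lower and red for the 3 higher on the 75th percentile scale. The blue lines move up to between -0.21 and 0.28 without scaling, and the red lines stay above 0.

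Slides could be compared in part. On slide 3, wild-type TAC array 2 stood beside wild-type sham arrays 1 and 2. All 9 falling members were lower there, by -1.37 to -0.30, and all 3 rising members were higher, by 0.33 to 0.67. These signs could not differ from the calls. The same arrays had entered the calls, and the wild-type groups of the 12 members did not overlap. The members' median on that slide was -0.14, against -0.17 over all genes. On slide 2, transgenic TAC array 3 stood beside transgenic sham array 1, with a members' median of 0.14, against 0.01. Between genotypes after sham, slide 3 held transgenic sham array 2, the array of raised background, and the same wild-type sham arrays. The members' median there was -0.47, against -0.08 over all genes. After TAC, slide 2 gave a members' median of 0.01 with 1 transgenic and 2 wild-type arrays. With slide as a fixed block, 1 member passed for TAC in wild-type hearts (Mylk3, -1.09 ± 0.17, adjusted p = 0.0482), and all 12 kept their sign; 547 genes passed in all. No member passed in the other comparisons with that block.

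Other genes of the same structures were read from 6 lists. Over all genes 8.7% were called higher and 12.5% lower in wild-type TAC hearts, against which these counts are to be read. In that comparison 5 of 23 other thick and thin filament genes rose and 6 fell: Myh7, the slow myosin heavy chain, rose by 3.40 ± 0.36 (adjusted p = 0.000809), Myom3, a further myomesin, by 1.28 ± 0.21, while Tnni3, cardiac troponin I, fell by 0.93 ± 0.12 and Myh6, the adult mouse heavy chain, by 0.76 ± 0.11. In sham hearts Myh7 was higher by 3.70 ± 0.36 in transgenic animals than in wild type (adjusted p = 0.00147), and its TAC response was 3.64 lower than in wild type (-3.64 ± 0.50, adjusted p = 0.014). Of 24 other Z-disc, M-band and stress-sensor genes, 7 rose and 4 fell; Ankrd1, a titin-bound stress sensor, rose by 1.60 ± 0.21, Xirp2 by 1.73 ± 0.26 and Pdlim7 by 1.24 ± 0.22. Among 17 integrin and costamere partners of vinculin 8 rose and 0 fell, led by Tln1, talin (0.65 ± 0.10), Sorbs2 (0.95 ± 0.16), Flna (0.79 ± 0.14) and Zyx (0.95 ± 0.17). Of 14 partners of dystrophin 3 rose (Lama2, Sgce and Sntb2) and 3 fell, among them Sgca by 0.83 ± 0.14 and Dag1 by 0.43 ± 0.09; Dag1 was named after its values were seen. Of 15 chaperones and ubiquitin ligases 0 rose and 2 fell, Smyd1 (-0.79 ± 0.14), a methyltransferase of thick filament assembly, and Unc45b (-0.57 ± 0.16), a myosin chaperone. Of 11 transcription regulators Mrtfa, a cofactor of serum response factor, rose by 0.82 ± 0.13 and Mef2a fell by 0.98 ± 0.19; Srf itself differed by -0.02 ± 0.12.

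The medians of these lists in wild-type TAC hearts were -0.05, -0.07, 0.35, -0.28, -0.07 and 0.09 in that order, against -0.13 over all genes. For TAC in transgenic hearts 0 genes of these lists passed. The difference between responses passed for 4.18% of all genes upward and 2.9% downward. In the lists it passed for 3 upward and 1 downward of the filament list, 3 and 2 of the Z-disc list, 0 and 3 of the vinculin partners, 2 and 3 of the dystrophin partners, 1 and 0 of the chaperones and 1 and 1 of the regulators. Without scaling, of the genes named as lower, Unc45b (0.19) and Dag1 (0.33) turned positive in wild-type TAC hearts and Myh6 stood at 0.00, while Tnni3, Smyd1, Sgca and Mef2a kept their sign.

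Markers of the cell types in the ventricle moved in the same comparisons. The 9 cardiomyocyte markers, none of them a member but several also in the lists above (Myh6, Tnni3, Actc1 and Nkx2-5), were all measured, and 7 fell in wild-type TAC hearts with a median of -0.76, a size near that of the falling members. Their summed linear signal, in multiples of the 75th percentile, was 1440 to 1711 in transgenic TAC, 1565 to 1751 in transgenic sham, 1301 to 1415 in wild-type TAC and 2194 to 2241 in wild-type sham hearts. Of the 11 fibroblast markers 9 rose in wild-type TAC hearts, with a median of 2.08, and their sums were 163 to 200, 168 to 184, 346 to 510 and 99.4 to 159 in the same order of groups. The endothelial list had 5 higher and 1 lower of 10, the smooth muscle list 4 and 1 of 10, the macrophage list 3 and 0 of 9, the atrial list 1 and 0 of 6 and the skeletal muscle list 0 and 1 of 8. The skeletal muscle markers Myh1 and Myh4 and the smooth muscle marker Lmod1 and the macrophage marker Cd68 were not tested. The part of these shifts in cell markers in the members' differences was not tested. In the difference between responses 6 cardiomyocyte markers were higher (median 0.68) and 8 fibroblast markers lower (median -1.78). Without scaling the cardiomyocyte median in wild-type TAC hearts was 0.00 and the fibroblast median 2.84.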

How the data were processed

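Total RNA was hybridised to 1-colour Agilent arrays, 12 in all. Per the file headers, the deposited intensity values came from Feature Extraction 10.7.3.1, background-subtracted within each array, with annotation on mm9. The deposited table of log2 values was scaled and centred on each probe's median, as read from the values, and served as an alternative; the submitters' processing notes name RMA without its role. Sham samples carry a time label of 0 and TAC samples 21, although all mice were killed at 21 days per the labels' protocols.

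Signals were log2 transformed and each array's 75th percentile over non-control spots subtracted. Outlier-flagged spots were dropped, replicate spots averaged, probes well above background on at least 3 arrays kept, and the brightest probe taken per gene or, without a symbol, per probe. limma 3.58.1 (R 4.3.3, data.table version 1.17.8) was fitted to the 4 groups over 25321 genes and tested on simulated data. Members that passed, up to 4 per role group and up to 4 genes per related list by smallest p were named in full. The members and lists were chosen with earlier results of these data known. The number of arrays limits the precision. Alternatives covered scaling, background, filters, probes, replicate and slide blocks and leaving out arrays; no scaling, scaling on the members' median and the probe test were added after seeing the data. Promoters came from RefSeq GRCm38.p6. Some genes of the related lists are counted but not reported here by name.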

Additional observations from a re-analysis of the deposited data

Results flagged for a closer look

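For 5 members the TAC response differed between the genotypes by limma's interaction test, transgenic minus wild type: Cmya5 by 1.06, Ldb3 by 1.03, Tpm1 by 0.71, Tnnt2 by 0.70 and Myl2 by 0.66. Over all genes 7.08% passed in this test, 4.18% with a positive sign. In each of the 5 the wild-type difference for TAC passed. The transgenic one did not, as it did for 0 of 25321 genes, so that contrast does not set the 5 apart. With slide as a fixed block 0 of the 5 passed, and all 5 kept their sign. The calls were also 0 of 5 under quantile normalization and without scaling. Myl2 turned sign without scaling, and Tpm1 when averaged over its probes. Ldb3 was called on its brightest probe. On its other probe the TAC arrays lay above the sham arrays in both genotypes.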

How the results depend on the processing

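The 20 member results that passed were recomputed under the alternatives, giving 514 values (the interaction has none for the compared groups alone, and Synm none under the stricter filter), of which 315 kept the call, 191 lost it and 8 turned sign. The turned values were Cryab in wild-type TAC under quantile normalization (0.10) and, without scaling, Cryab (0.28), Ldb3 (0.11), Myl2 (0.039), Tnnt2 (0.029) and Tpm1 (0.030); the genotype difference in response turned for Myl2 without scaling (-0.00425) and for Tpm1 averaged over its probes (-0.054). The count for wild-type TAC, 12, became 7 under normexp and 1 with the slide block. The sham genotype count, 2, was 11 when probes had to be well above background on all 12 arrays, and 0 under quantile, median, members' median or no scaling, normexp, no filter, averaged probes, the replicate block, the slide block and a fit of the compared groups alone. The TAC genotype count, 1, was 3 with the stricter filter and 0 under median or members' median scaling, normexp, no filter, either block and the compared groups alone. The interaction count, 5, was 9 with the stricter filter, 3 with averaged probes, 2 without scaling (Des and Flnc, neither among the 5), 1 under median scaling, no filter or the replicate block, and 0 under quantile, normexp, members' median scaling or the slide block. The stricter filter left 27 members among 12330 genes, and calls rose over all genes too. Between genotypes 1122 genes passed after sham and 2526 after TAC, and 3319 passed in the interaction. In the main fit these counts were 364, 1013 and 1793 of 25321. The members' median in wild-type TAC was 0.23 under quantile, -0.27 under normexp and 0.70 without scaling; in transgenic TAC it was 0.082 under median scaling, 0.26 without scaling and -0.12 on the members' median. Between genotypes after sham it was -0.12 under quantile, -0.22 under median scaling, -0.46 with the slide block, 0.034 without scaling and 0.057 on the members' median. After TAC it was -0.089, 0.15, -0.24 and 0.17 under quantile, normexp, no scaling and members' median scaling. For the interaction it was 0.032, 0.28, 0.49, -0.31 and 0.083 under quantile, median scaling, normexp, no scaling and members' median scaling. With 1 array left out, counts ranged from 8 to 13 for wild-type TAC, 0 to 0 for transgenic TAC, 0 to 3 and 0 to 1 for genotype after sham and TAC, and 1 to 6 for the interaction; medians ranged from -0.14 to -0.067, 0.09 to 0.20, -0.36 to -0.29, -0.01 to 0.09 and 0.25 to 0.45 in that order. With the replicate block 9 members passed for wild-type TAC. Same-numbered arrays of different groups correlated at -0.39 to 0.22 (median -0.01), and differently numbered ones at -0.35 to 0.27 (median 0.00). Values were centred within each group of 3 arrays for this, so it cannot settle whether the numbers pair the samples. The causes of these shifts were not tested.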
